A study of Canis lupus familiaris with 186 samples.

Results

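A set of 9 complement genes was followed across the canine osteosarcomas of the DOG2 dataset: the recognition chains C1QA, C1QB and C1QC, the components C2, C3, CFB and CFP, and the anaphylatoxin receptors C3AR1 and C5AR1. They were taken by gene symbol from the deposited table, which makes 9 of 37952 genes, and all 9 passed the filter on low counts that 13422 genes passed. The samples were primary tumors of 186 pet dogs with appendicular osteosarcoma and no macroscopic metastasis, taken before any treatment and kept in RNAlater, with 93 dogs from the clinical trial COTC021 and 93 from COTC022. Each dog gave 1 poly-A selected, stranded RNA library, so that every p-value here measures spread between dogs. Total counts ran from 6587631 to 27420857 per library, with a median of 10797162. The trial was the only grouping that the sample labels gave, and clusters of dogs and clinical outcome were not analysed here.

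Complement is a cascade of plasma and tissue proteins that marks targets for uptake by phagocytes and can lyse cells. The classical pathway starts when C1q, a hexamer of trimers of the C1QA, C1QB and C1QC chains, binds its target, and it cuts C4 and C2 to form a C3 convertase. The alternative pathway uses factor B (CFB) in place of C2, with properdin (CFP) holding its convertase together. Both pathways cleave C3 and then C5, and the small fragments C3a and C5a are read by the receptors C3AR1 and C5AR1 on myeloid cells. Most circulating complement comes from the liver, whereas C1q and properdin are made mainly by macrophages, dendritic cells and other leukocytes.

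The members sit at 6 places in the dog genome (build UU_Cfam_GSD_1.0). The C1q chains lie side by side on chromosome 2, with C1QB at chr2:76042588-76047706, C1QC at chr2:76052212-76056780 and C1QA at chr2:76060247-76063252. The gaps between them are 4505 bases from C1QB to C1QC and 3466 bases from C1QC to C1QA. C2 at chr12:1491715-1533005 is followed after 416 bases by CFB at chr12:1533422-1539539. C3 is at chr20:53965350-53997908, C3AR1 at chr27:8662656-8670749, C5AR1 at chr1:109365784-109381523 and CFP at chrX:41448168-41453913. All 9 are annotated as protein coding, and the counts are per gene over its exons. One non-coding gene, LOC119870434, overlaps both C1QC and C1QA, and ZBTB12 overlaps C2. Whether the counting used strand is not given in the sources used here, so reads of such overlaps could be shared between the partners.

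Levels are given as CPM, the counts of a gene scaled to a common library total, after scaling the libraries by the trimmed mean of M values (TMM). They compare dogs for 1 gene and do not rank the genes, since no transcript lengths were used. In a bulk tumor sample, fewer cells of a type and less RNA per cell cannot be told apart. The C1q chains were detected in all 186 tumors. C1QA ran from 6.97 to 2135 CPM with a median of 85.8, C1QB from 6.36 to 2118 with a median of 101, and C1QC from 8.43 to 2776 with a median of 109. The same dog of COTC022 was highest for all 3 chains, and another dog of that trial was lowest for all 3. The 90th percentile of the dogs lay 15.7-fold above the 10th for C1QA, 16.4-fold for C1QB and 13.9-fold for C1QC.

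C3, the component that all pathways share, varied more between dogs than any other member. Its level ran from 0.447 to 1338 CPM with a median of 17.9, and the 90th percentile was 52.2-fold above the 10th. On the log2 scale the standard deviation over dogs was 2.17 for C3. C2 varied least, with a lowest level of 14.1 CPM, a median of 104 and a highest of 429, a 6.04-fold spread between the same percentiles and a standard deviation of 1.02. CFB and CFP were read at low depth. CFB ran from 0.0864 to 106 CPM with a median of 4.18, and 18 libraries held fewer than 10 counts of it. CFP ran from 0 to 105.5 CPM with a median of 2.93, and 26 libraries held fewer than 10 counts. Low values of these 2 genes are therefore imprecise. Of the receptors, C3AR1 ran from 1.3 to 292 CPM with a median of 21.0, and C5AR1 from 0.986 to 87.6 CPM with a median of 8.94.

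**Figure D1:**
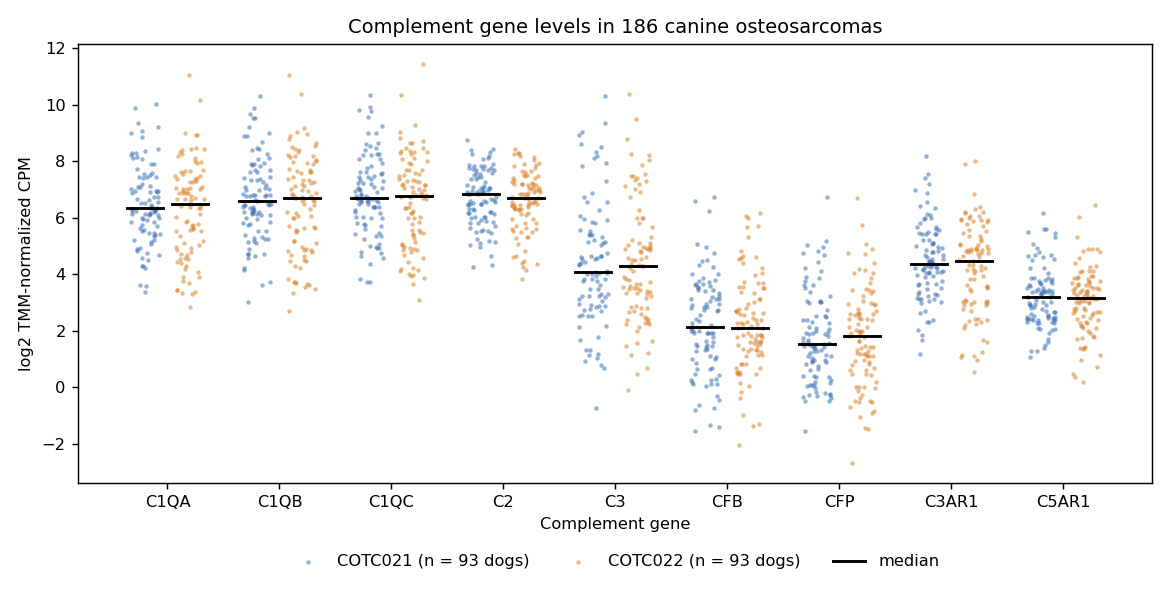
Level of each complement gene in log2 TMM-normalized CPM (vertical axis), 1 point per dog, with COTC021 in blue and COTC022 in orange (93 dogs each) and black bars for medians. The trials overlap for all 9 genes, C3 spans the widest range and C2 the narrowest, and heights are not comparable between genes.

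The first comparison asked whether the trials differed, because the study treated the trial as a batch. None of the 9 members was called between COTC022 and COTC021 by limma-voom at an adjusted p under 0.05, and 0 had an unadjusted p under 0.05. The tests of edgeR and DESeq2 also called 0 of 9. Across all genes 0.0149% were called in this contrast. The log2 differences ran from -0.26 for C3AR1 to 0.10 for C3. The 95% interval was -0.68 to 0.17 for C3AR1, -0.65 to 0.23 for C1QA, -0.52 to 0.72 for C3 and -0.44 to 0.15 for C2. Differences inside these intervals are not excluded by the data. The median CPM of C1QA was 80.5 in COTC021 and 90.3 in COTC022, and that of C3 was 16.8 and 19.3. Directions differed between measures: for C1QA limma-voom gave -0.21 and edgeR 0.05, and for C3 limma-voom gave 0.10 and edgeR -0.10. A second form of library name was carried by 50 libraries with a higher depth, with a median total of 19440449.5 against 9851681 in the other 136. No member differed between these forms of name, with adjusted p from 0.599 for C5AR1 to 0.998 for C1QC, while 4.27% of all genes were called.

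Co-expression was described over the 36 pairs of members, on log2 CPM. Every pair was positively correlated across the 186 dogs, with Pearson r from 0.369 for C5AR1 with CFB to 0.99 for C1QA with C1QC, and with Spearman rho from 0.348 to 0.988. All 36 had an adjusted p of 1e-05 in a two-sided permutation test with 100000 resamples, the smallest value that this test can give. Pairs of other genes were not tested. Leaving out the 2 dogs farthest from the median of the second gene left r between 0.378 and 0.989. Within each trial and each form of library name, r lay between 0.268 and 0.995.

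The 3 chains of C1q moved together almost dog for dog. Their pairwise r was 0.983 for C1QA with C1QB, 0.99 for C1QA with C1QC and 0.983 for C1QB with C1QC. The standard deviation of the log2 ratio was 0.22 for C1QA to C1QC, 0.30 for C1QA to C1QB and 0.30 for C1QB to C1QC, whereas each chain on its own had a standard deviation of 1.52 to 1.6. The 19 dogs with the most C1QA and the 19 with the most C1QB shared 18 dogs. Among all genes that passed the filter and carry a symbol, the 2 most like each chain were the other two chains.

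Neighbors on the chromosome did not always pair in this way. C2 and CFB, which lie 416 bases apart and act at the same step of their pathways, had r = 0.469 and a log2 ratio with a standard deviation of 1.52. The 19 dogs highest in each shared 7. C2 was closer to C5AR1, at r = 0.577, than to CFB, although the difference between these correlations was not tested. C3 and its receptor C3AR1 had r = 0.589, with 7 of 19 dogs shared. C3AR1 with C1QA reached r = 0.809, and C5AR1 with CFP reached 0.742 with 13 of 19 dogs shared.

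**Figure D2:**
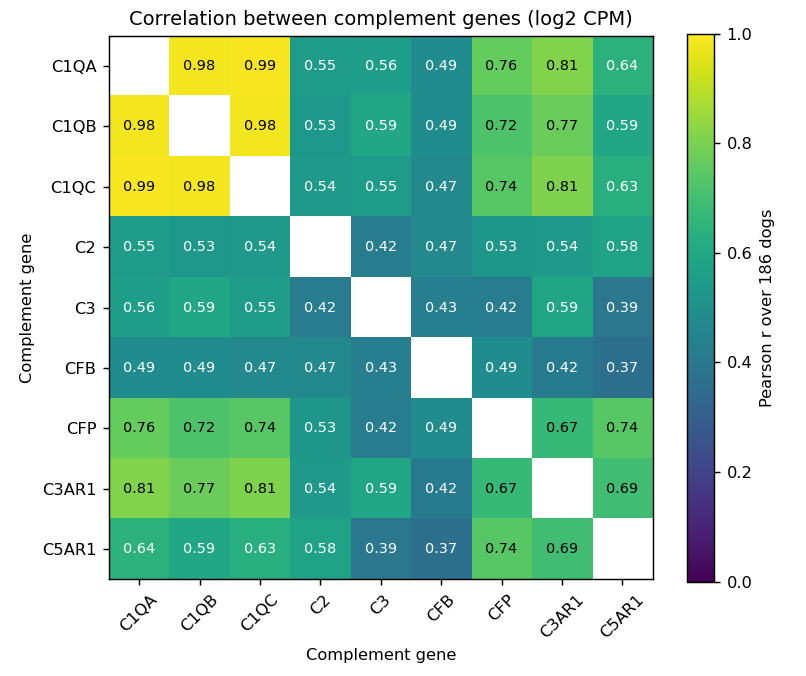
Pearson r of log2 CPM over 186 dogs for every pair of the 9 complement genes (both axes), on a color scale from 0 to 1. The C1q chains form a block at 0.98 to 0.99, C3AR1, C5AR1 and CFP stand at 0.59 to 0.81 with C1q and with each other, and C3 and CFB stay at or below 0.59.

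The next question was which members go with macrophage markers and which with stroma. A macrophage score was made from 13 genes (among them CD163, CSF1R, AIF1 and MSR1) and a stroma score from 11 fibroblast genes (among them DCN, LUM, FAP and PDGFRA), none of them a complement gene. Each score is the mean z-score of its genes, scaled to a standard deviation (SD) of 1 over the dogs, and a slope is the log2 change in a gene per SD of the score with the other score and the trial in the model. All 13 and all 11 genes passed the filter. The macrophage genes summed to 249 to 6411 CPM per tumor with a median of 1358, the stroma genes to 383 to 18580 with a median of 4826, and the scores had a Pearson r of 0.042 with each other.

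All 9 members rose with the macrophage score in limma-voom, where 50.6% of all genes tested were called, 22.2% rising and 28.4% falling. The slope was highest for CFP at 1.37 (SE 0.10, adjusted p = 6.38e-27), followed by C3AR1 at 1.28 (SE 0.07, adjusted p = 7.83e-41). The chains of C1q followed at 1.14 for C1QA, 1.08 for C1QC and 1.08 for C1QB, with SE of 0.08, 0.08 and 0.09. C3 had a slope of 1.01 (SE 0.14, adjusted p = 2.53e-10), C5AR1 0.90 (SE 0.06), CFB 0.82 (SE 0.12) and C2 0.67 (SE 0.05). The median slope of the members was 1.08, against -0.02 over all genes tested. CFP had a higher slope than 99.8% of all genes tested and C2 than 96.3%. In COTC021 alone the 9 slopes ran from 0.59 to 1.31, and in COTC022 alone from 0.68 to 1.39.

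With the stroma score 5 of 9 members rose and 0 fell, where 42.8% of all genes were called, 21.7% rising and 21% falling. C3 had by far the steepest slope among the 9, at 1.17 per SD (SE 0.13, adjusted p = 8.55e-14), above that of 99.5% of all genes. The other 4 had small slopes: 0.34 for CFB (adjusted p = 0.00716), 0.25 for C2 (adjusted p = 4.89e-05), 0.21 for C1QB (adjusted p = 0.0358) and 0.20 for C3AR1 (adjusted p = 0.00563). CFP at 0.16, C1QC at 0.15, C1QA at 0.13 and C5AR1 at 0.08 did not pass the test. The calls of C1QB, CFB and C3AR1 depended on the method or the libraries. In edgeR the stroma slope was 0.07 for C1QB (adjusted p = 0.374) and 0.20 for CFB (adjusted p = 0.119). That of C3AR1 was 0.12 (adjusted p = 0.325) in COTC021 alone, 0.18 (adjusted p = 0.181) in the 50 deeper libraries alone and 0.10 (adjusted p = 0.0531) with a macrophage score of CD163, MSR1 and AIF1.

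The difference between both slopes was tested in the same fit. In all, 8 of 9 members had a steeper macrophage than stroma slope, where 38.8% of all genes were called, 18.2% in this direction and 20.6% in the other. The difference was 1.22 for CFP, 1.08 for C3AR1, 1.01 for C1QA, 0.93 for C1QC, 0.86 for C1QB, 0.82 for C5AR1, 0.47 for CFB and 0.43 for C2. C3 was the exception, with a difference of -0.15 (SE 0.20, adjusted p = 0.578). Within COTC022 alone the difference for CFB was 0.18 (adjusted p = 0.628), against 0.89 (adjusted p = 0.00558) within COTC021. The difference for CFB was not called in 4 of 12 alternatives, and that for C2 in 1 of 12. In the 50 deeper libraries alone it was 0.27 for CFB (adjusted p = 0.522) and 0.32 for C2 (adjusted p = 0.0933). A limma-voom test of whether the macrophage or stroma slopes themselves differed between trials called 0 of 9 members and 0 genes of all, with 0 members at an unadjusted p under 0.05. Between the forms of library name it called 0 of 9 macrophage slopes, and 9 of 13398 genes tested. At an unadjusted p under 0.05 stood 4 of the 9 members and 1599 of the 13398 genes. The macrophage slope of C1QA was 0.55 higher in the 50 deeper libraries (SE 0.20, adjusted p = 0.259).

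**Figure D3:**
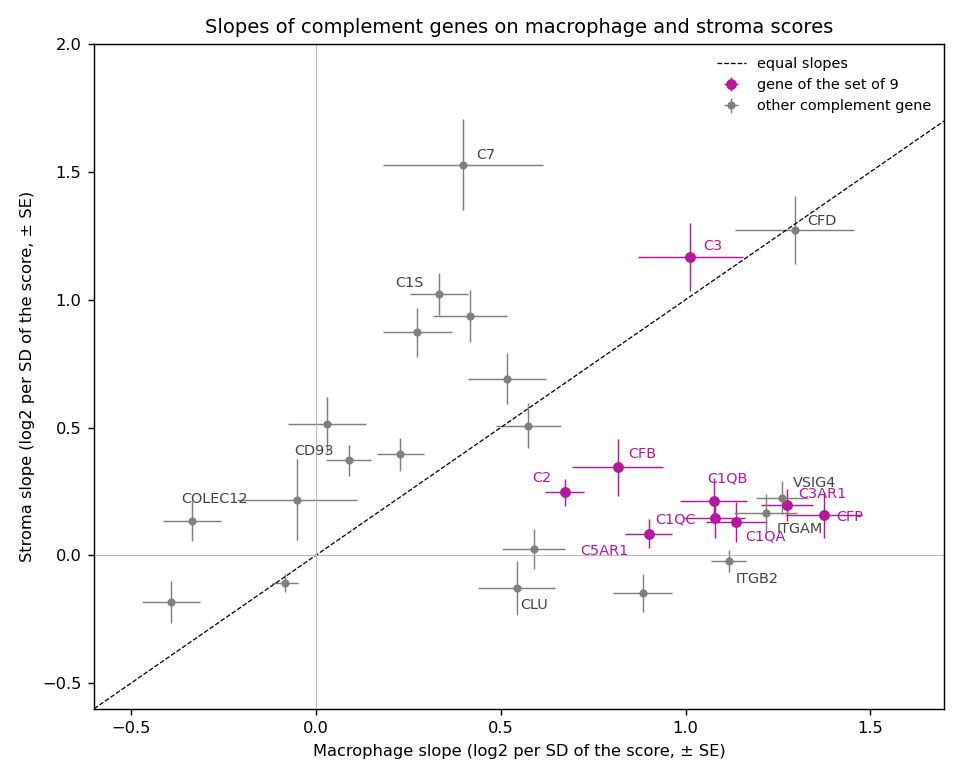
Slope on the macrophage score (horizontal) and on the stroma score (vertical), in log2 per SD with bars of ± 1 SE, for the 9 complement genes in magenta and other complement genes in grey. Of the 9, 8 lie below the dashed line of equal slopes, C3 lies near it beside CFD, and C7 and C1S lie above it.

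The share of each member's variance over dogs that the scores carried ordered the members differently from the slopes. The macrophage score alone accounted for 62.7% of the variance of C3AR1, 53.2% of C1QA, 50.4% of C1QC, 48.4% of C5AR1, 45.4% of C1QB, 45.2% of C2 and 43.3% of CFP. For C3 it accounted for 21.4% and the stroma score for 22.8%, with 42.4% for both together. For CFB both scores together accounted for 23.3%, the lowest share of the 9. The stroma score alone stayed between 0.534% for C5AR1 and 7.39% for C2 in the other 8.

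**Figure D4:**
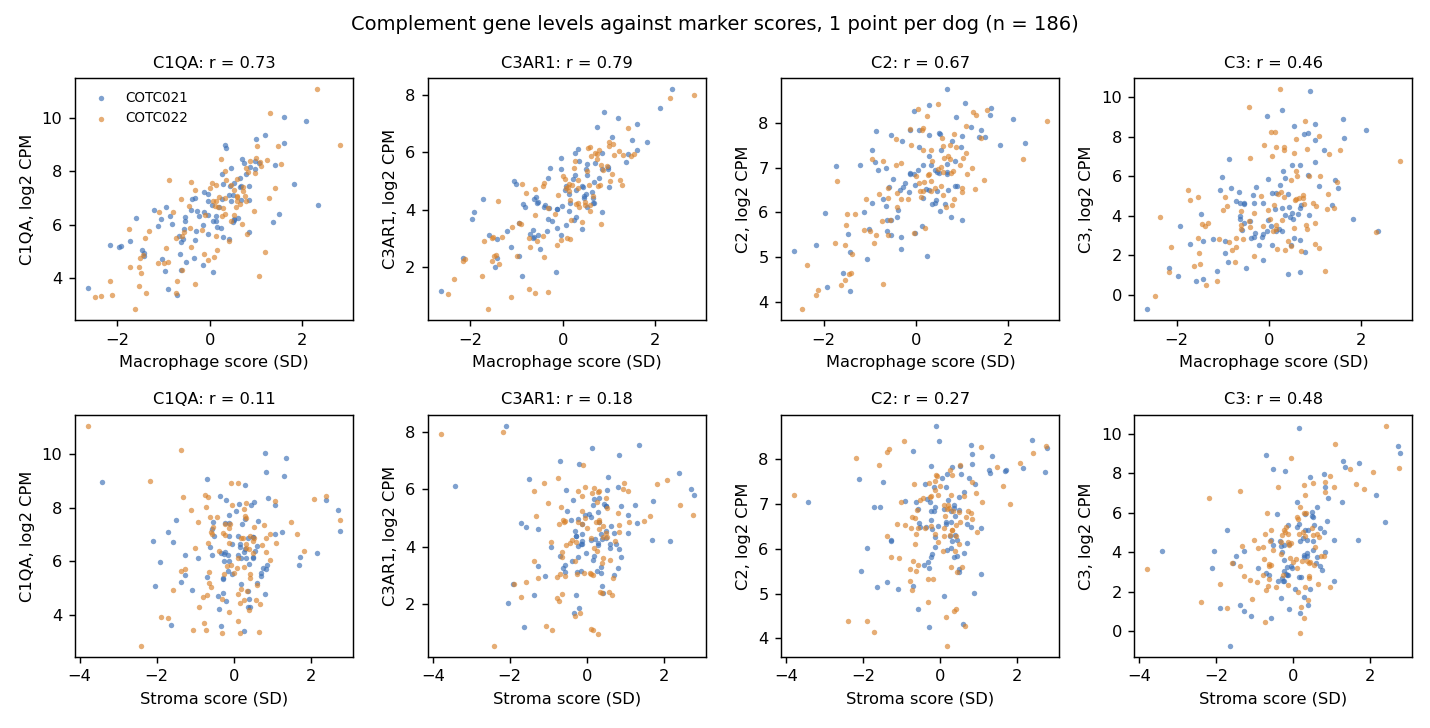
Log2 CPM of C1QA, C3AR1, C2 and C3 (vertical) against the macrophage score (top row) and the stroma score (bottom row), both in SD, 1 point per dog (186 dogs, COTC021 blue, COTC022 orange). C1QA, C3AR1 and C2 follow the macrophage score at r = 0.73, 0.79 and 0.67, while C3 has r = 0.46 with it and r = 0.48 with the stroma score.

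Markers of other cells moved with the members as well, as seen in 81 correlations of the 9 genes with 9 scores, each tested by permutation with 100000 resamples and adjusted over the 81. Of these 61 were positive and 9 negative at an adjusted p under 0.05. Only the members were correlated with the scores, so no share of all genes stands beside these counts. Every member was correlated with the macrophage score (r 0.459 for CFB to 0.792 for C3AR1, rho 0.412 to 0.783), with the T cell score (r 0.345 for C3 to 0.764 for C1QA, rho 0.323 to 0.737) and with the interferon score (r 0.318 for C3 to 0.723 for C1QA, rho 0.302 to 0.707). Without the 2 most extreme dogs these ranges were 0.438 to 0.778, 0.358 to 0.74 and 0.311 to 0.728. Within each trial and form of library name they were 0.379 to 0.851, 0.305 to 0.829 and 0.282 to 0.745. For the C1q chains and CFP the r with T cell genes stood beside that with macrophage genes: 0.764 and 0.729 for C1QA, 0.722 and 0.674 for C1QB, 0.761 and 0.71 for C1QC, and 0.701 and 0.658 for CFP. The difference between these correlations was not tested. Of the T cell list 3 of 6 genes passed the filter, all 6 summed to 1.28 to 2637 CPM per tumor with a median of 15.0, and none had a median of 0. The part of T cells in the C1q levels was not tested.

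The neutrophil score gave unequal values. C5AR1, which neutrophils carry in large amounts, had r = 0.555 with the neutrophil score and CFP had 0.477, whereas C3AR1 had 0.351 and the remaining 6 had 0.158 to 0.277, with no test of these differences. The rho for C5AR1 was 0.541, and its r was 0.525 without the 2 most extreme dogs and 0.511 to 0.613 within the subsets, meaning each trial and each form of library name. Of the neutrophil list 4 of 5 genes passed the filter, and the list summed to 0.939 to 1424 CPM with a median of 14.3. All members were negatively correlated with the osteoblast score of 8 genes, from -0.429 for C5AR1 to -0.171 for CFB (rho -0.346 to -0.124). By rho CFB did not pass the permutation test, at -0.124 (adjusted p = 0.104). Within the subsets r with the osteoblast score was -0.517 to -0.107. With the osteoblast score also in the model, a choice made after the data were seen, all 9 macrophage slopes still passed the test, at 0.65 for C2 to 1.19 for C3AR1. The share of all genes that passed in that model is not given here. With the endothelial score r was 0.16 to 0.317 (0.0999 to 0.523 within the subsets), and with JCHAIN, the only one of 5 B and plasma cell genes that passed the filter, it was 0.224 for C2 to 0.554 for C1QA (0.165 to 0.61 within the subsets). MS4A1 of that list had a median of 0, and the 5 genes summed to 3.29 to 4662 CPM. By rho, C3 with the endothelial score (0.131, adjusted p = 0.0874) and C2 with JCHAIN (0.144, adjusted p = 0.0574) did not pass the permutation test. With the osteoclast score 2 members were correlated, C2 at 0.231 and CFB at 0.196, and within the 50 deeper libraries that of C2 was -0.0585.

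The stroma score had its highest r with C3, whose r was 0.477 (rho 0.437, 0.5 without the 2 most extreme dogs, and 0.327 to 0.537 within subsets). For the other 8 members r was 0.0731 for C5AR1 to 0.272 for C2 over all dogs, and within the subsets it went as low as -0.179 for C1QC, in the 50 deeper libraries. Without the 2 dogs farthest from the median stroma score, r rose from 0.112 to 0.23 for C1QA, from 0.126 to 0.248 for C1QC and from 0.0769 to 0.191 for CFP, and these 3 then passed the test. Those dogs had the lowest stroma scores, and their C1QA stood at 505 and 2135 CPM.

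**Figure D5:**
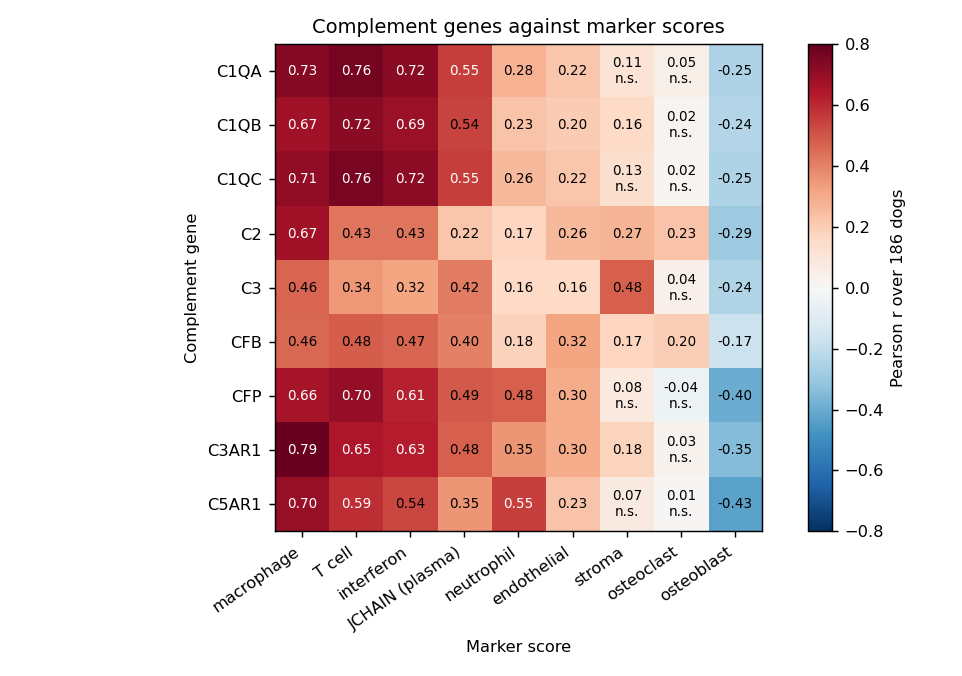
Pearson r over 186 dogs between the log2 CPM of each complement gene (rows) and each marker score (columns), on a color scale from -0.8 to 0.8, where n.s. marks an adjusted p of 0.05 or more. The macrophage column runs from 0.46 to 0.79, C3 is the only gene whose stroma value reaches 0.48, C5AR1 has the highest neutrophil value at 0.55, and the osteoblast column is negative throughout.

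Complement genes are known interferon targets, and the next fit asked whether the members followed interferon genes beyond the macrophage and stroma scores. The interferon score held 8 genes that passed the filter, IRF1 among them, and had r = 0.581 with the macrophage score. With it 7 of 9 members rose, where 14.3% of all genes were called, 7.49% rising and 6.83% falling. The C1q chains had the steepest slopes, at 0.78 for C1QB (SE 0.09, adjusted p = 3.69e-13), 0.74 for C1QC and 0.74 for C1QA. CFB followed at 0.68 (SE 0.13, adjusted p = 1.97e-05), CFP at 0.61 (adjusted p = 6.72e-06), C3AR1 at 0.39 (adjusted p = 4.62e-06) and C5AR1 at 0.22 (adjusted p = 0.0225). C3 at 0.36 (SE 0.16, adjusted p = 0.11) and C2 at 0.09 (SE 0.07, adjusted p = 0.391) did not pass. Adding the interferon score raised the explained variance of C1QA from 53.8% to 68.6% and that of C2 from 51.2% to 51.8%. CFB and C3 changed sides with the method. In edgeR the slope of CFB was 0.26 (adjusted p = 0.221) and that of C3 was 0.66 (adjusted p = 0.00147), and DESeq2 gave the same calls. In COTC022 alone the slope of C5AR1 was 0.15 (adjusted p = 0.56) and that of CFP 0.42 (adjusted p = 0.166), neither called. C5AR1 was not called in 4 of the 11 alternatives, CFP and C3AR1 in 1 each, that of C3AR1 being the 50 deeper libraries alone (0.21, adjusted p = 0.348). The C1q chains were called in each of the 11 alternatives, at 0.52 to 0.84.

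GS-1 is the gene signature that the study carried over from earlier work on canine osteosarcoma. It contains C1QB, C3AR1 and CFP of the members, together with VSIG4, and a score without these 4 was therefore used, from 23 genes. It was treated as a number, with no clusters. All 9 members rose with this score, where 49.9% of all genes were called, 22.8% rising and 27.1% falling. C1QB, C3AR1 and CFP belong to the signature itself, and C1QA and C1QC each had r = 0.983 with C1QB. The calls of these members are therefore not independent of how the signature was picked. The slope was 1.40 for CFP (SE 0.07, adjusted p = 2.42e-47), 1.32 for C1QA, 1.31 for C1QB, 1.29 for C1QC, 1.27 for C3AR1 (SE 0.05, adjusted p = 1.75e-59), 1.15 for C3 (SE 0.14), 0.91 for CFB, 0.86 for C5AR1 and 0.61 for C2. The GS-1 score had r = 0.856 with the macrophage score. With the macrophage score also in the model 8 of 9 members still rose with GS-1, at 0.64 for C5AR1 to 1.52 for CFP. The exception was C2, whose slope went from 0.61 to 0.09 (adjusted p = 0.574). The share of all genes called in the model with both scores is not given here, so this count is not set against it.

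The other complement genes of the cascade were set beside the members. Of 41 such genes listed by role, 35 were in the table under their symbol and 21 passed the filter. Of the 21, 13 rose with the macrophage score and 3 fell, and 12 rose with the stroma score and 1 fell, against the shares of all genes given above. The difference of macrophage minus stroma slope was above 0 in 6 and below 0 in 8. The median difference was -0.17 for these 21 genes, 0.86 for the 9 members and -0.01 over all genes. The members were chosen with earlier results of these data known, so their contrast with the other genes is a description only.

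C1r and C1s, the proteases that C1q activates, had steeper slopes on stroma. C1S, at 12.2 to 3128 CPM with a median of 256, had a stroma slope of 1.02 (SE 0.08, adjusted p = 5.14e-24) and a macrophage slope of 0.33, a difference of -0.69 (adjusted p = 1.05e-07). Of the 4 classical and lectin pathway genes tested 3 rose with the stroma score, the others at 0.87 for C1R and 0.94 for MASP1, each with a steeper slope on stroma than on macrophages. COLEC12, a scavenger receptor of the collectin family, fell with the macrophage score at -0.34 (adjusted p = 0.000127). Its stroma slope of 0.14 was not called (adjusted p = 0.152), but its difference of -0.47 was (adjusted p = 0.000243). C1R and C1S nevertheless rose with the interferon score as the C1q chains did, at 0.76 and 0.70. SERPING1, the inhibitor of both proteases, rose at 0.66. Most others did not: of the 21 other complement genes tested 4 rose with the interferon score, 2 fell and 15 were not called. Over all genes 7.49% rose and 6.83% fell. Those that fell were COLEC12 at -0.34 (adjusted p = 0.00652) and ITGAM at -0.42 (adjusted p = 0.000111).

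CFD, the protease that cuts factor B, rose with both scores as C3 did, at 1.29 for macrophages and 1.27 for stroma, with no difference called (0.02, adjusted p = 0.947). Its level ran from 0 to 273 CPM with a median of 2.37, and 46 libraries held fewer than 10 counts. C7, the only terminal component to pass the filter, had a stroma slope of 1.53 (adjusted p = 2.47e-13) and a difference of -1.13. It was also read at low depth, with a median of 3.35 CPM and fewer than 10 counts in 62 libraries. The remaining components of the membrane attack complex were scarcely read, with a median of 9 counts for C5, 1 for C6 and 0 for C8A, C8B and C9. C8A, C8B and C9 held fewer than 10 counts in all 186 libraries, so their levels could not be compared at this depth.

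The receptors outside the members followed the same side as C3AR1 and C5AR1, with 5 of 7 steeper on macrophages. ITGB2, the shared chain of the complement receptors CR3 and CR4, had a difference of 1.14 (adjusted p = 2.07e-38), ITGAM, the CR3 chain, 1.05, and VSIG4, a C3b receptor of tissue macrophages, 1.04. CD93, a receptor found on endothelium, had a difference of -0.28 (adjusted p = 0.00548). CLU, a secreted regulator of the terminal complex, had a macrophage slope of 0.54 and a stroma slope of -0.13 (adjusted p = 0.345).

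The genes most like each member over the 186 dogs differed between the members. After the other chains, C1QA was most like TIMD4, a phosphatidylserine receptor, at r = 0.895, and C1QB and C1QC were most like CD74, the MHC class II invariant chain, at 0.868 and 0.89. C3AR1 was most like CD180 at 0.922, CD86, a costimulatory ligand, at 0.92 and CYBB, the catalytic chain of the phagocyte NADPH oxidase, at 0.904. Among the closest to C5AR1 were SNX20 at 0.812 and SLC11A1, a metal transporter of the phagosome, at 0.809. CFP was most like CD53, a tetraspanin of leukocytes, at 0.834, LST1 at 0.811 and CD5L, which macrophages secrete, at 0.806.

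The closest genes of the remaining members were less close. C2 was most like SLC43A2, an amino acid transporter, at 0.708, CSF2RB, the shared receptor chain for GM-CSF and related cytokines, at 0.685 and UCP2 at 0.672. C3 was most like CD22, a lectin of B cells, at 0.651, SLC46A2 at 0.616 and DRAM1 at 0.607. C1QB was in 10th place at 0.595 among the genes whose symbol does not start with LOC. CFB was most like GIMAP8 at 0.586, TGM2, a transglutaminase, at 0.573 and JAK3, a cytokine receptor kinase, at 0.569.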

How the data were processed

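Total RNA of tumors with a RIN above 8 was made into stranded mRNA libraries and sequenced as paired reads. The authors demultiplexed with bcl2fastq, trimmed with Cutadapt, aligned with STAR 2.7.0f and quantified with RSEM 1.3.1. They deposited 1 table of expected counts per gene, with no normalization, of which 3.07% of values are not whole. Reads that fit several genes were thus split by the estimate. Values were rounded, and 186 of 198 columns were used; 12 columns matched no sample label and were left out.

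The low-count filter was that of edgeR with a minimum count of 10, a sample share of 0.5 and a large-group size of 5, and libraries were TMM-scaled in edgeR 4.0.16 (factors 0.500 to 1.20). The main test was limma-voom (limma 3.58.1, R 4.3.3), with Benjamini-Hochberg adjustment over all genes outside the score lists and a threshold of 0.05. The models were trial alone; trial with macrophage and stroma scores; these with the interferon score; and trial with GS-1. Correlations used log2 CPM and two-sided permutation tests. Alternatives included edgeR's quasi-likelihood test and DESeq2 1.42.0. The scripts were tested on simulated data.

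All 9 members were described. Of the other complement genes, those named had the 3 highest or 3 lowest differences of slopes among those called or the highest mean CPM in their role group. The genes most like a member were the 3 with the highest r among those whose symbol does not start with LOC. Some genes that this rule names are not reported here. C1R, MASP1, SERPING1 and the terminal components named beside them were chosen after their values were seen. The members and gene lists were chosen with earlier results of these data known. Counting error grows at low depth, so genes with few counts are less precise.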

Additional observations from a re-analysis of the deposited data

How the results depend on the processing

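The fits were repeated with edgeR, DESeq2, RLE size factors, no low-count filter, the library name form as a covariate and each form of library name alone. Those on scores were also repeated in each trial alone and with altered scores or models. Correlations were repeated on quantile-normalized values, within each trial and form of library name, and without the 2 farthest dogs. The number of members called on the stroma score went from 5 to 3 in edgeR, 3 in DESeq2, 2 in the 50 deeper libraries alone, 2 in COTC021 alone and 3 with a macrophage score of CD163, MSR1 and AIF1, while C3 and C2 were called in each of the 13 alternatives. The number called on the interferon score went from 7 to 4 in the 50 deeper libraries alone. The share of all genes called under each of these settings is not given here, so the falls are not set against it. The counts of members on the trial, macrophage, difference and GS-1 contrasts stayed within 1.5 times. On the difference contrast CFB was nevertheless not called in 4 of 12 alternatives and C2 in 1 of 12. Within the 50 deeper libraries r with the stroma score was -0.116 for C1QB and -0.164 for C3AR1, and r of C2 with the osteoclast score was -0.0585, each opposite in sign to all dogs. The cause was not tested. Genes called between trials over the whole table were 2 in limma-voom, 129 in edgeR and 71 in DESeq2, with no member among them. No paired analysis was possible because the replicate numbers follow accession order and belong to different dogs.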
